A study of Mus musculus with 6 samples.

Results

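Hepatocytes keep their identity through a small network of transcription factors, and the transcripts of 9 of its genes are described here. The genes were taken by name from the table of all genes: *Hnf4a*, *Foxa1*, *Foxa2*, *Foxa3*, *Cebpa*, *Cebpb*, *Onecut1*, *Onecut2* and *Prox1*. All 9 were found, among 54532 genes in all, and all 9 had enough reads to be tested. RNA-Seq was made from the livers of 3 g*Spns1*-cKO mice and 3 control mice, 1 library per mouse. The g*Spns1*-cKO animals, labelled SPNS1 KO, carried floxed *Spns1* alleles and a Cre-ERT2 recombinase driven from the Rosa26 locus, so that tamoxifen injected in early postnatal life deleted a *Spns1* exon in the whole body and not in hepatocytes alone. The controls are labelled WT, whereas the methods of the study use *Spns1* fl/fl littermates without Cre. Both groups were on a C57BL/6 background. The age and sex of the 6 sequenced mice, and whether the controls received tamoxifen, are not given in the sources used here. SPNS1 is a lysosomal lysolipid transporter, and the comparison asks which liver transcripts differ when it is lacking.

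HNF4A, a nuclear receptor, binds the promoters and enhancers of a large share of liver-expressed genes. The FOXA proteins are forkhead factors that open chromatin early in liver development, and C/EBPα and C/EBPβ are basic leucine zipper factors that drive metabolic and acute phase genes of the mature hepatocyte. The ONECUT factors, of which ONECUT1 is also called HNF6, act in hepatoblasts, hepatocytes and bile duct cells, and PROX1 is a homeobox factor of hepatocytes that is also found in lymphatic endothelium. The factors bind each other's promoters and so form a cross-regulated network.

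Promoter windows of the genes whose transcripts differed most firmly, and of the *Hnf4a* locus, are shown to give the sequence around their annotated starts. Gene counts do not show which starts were used in these livers. Each window was taken from RefSeq on build GRCm38.p6, runs 5′ to 3′ on the strand of the gene, and covers 250 bases before and 50 bases after an annotated start. A window was listed for 8 of the 9 genes, all except *Onecut2*. Capitals mark the letters TATAAA on the strand of the gene.
Cebpa, chr7:35119043-35119342, plus strand: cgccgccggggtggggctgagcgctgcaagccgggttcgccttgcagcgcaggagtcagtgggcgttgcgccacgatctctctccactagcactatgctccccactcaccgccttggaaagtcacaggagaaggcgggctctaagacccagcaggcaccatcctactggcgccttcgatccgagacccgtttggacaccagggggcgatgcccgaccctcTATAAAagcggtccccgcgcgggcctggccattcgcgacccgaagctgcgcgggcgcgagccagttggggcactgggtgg
Cebpb, chr2:167688665-167688964, plus strand: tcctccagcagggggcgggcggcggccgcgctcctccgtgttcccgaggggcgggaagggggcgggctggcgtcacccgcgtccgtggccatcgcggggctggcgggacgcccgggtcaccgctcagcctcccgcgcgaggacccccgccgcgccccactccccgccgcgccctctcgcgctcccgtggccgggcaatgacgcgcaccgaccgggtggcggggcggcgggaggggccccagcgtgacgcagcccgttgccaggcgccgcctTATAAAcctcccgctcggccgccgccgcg
Foxa3, chr7:19023490-19023789, minus strand: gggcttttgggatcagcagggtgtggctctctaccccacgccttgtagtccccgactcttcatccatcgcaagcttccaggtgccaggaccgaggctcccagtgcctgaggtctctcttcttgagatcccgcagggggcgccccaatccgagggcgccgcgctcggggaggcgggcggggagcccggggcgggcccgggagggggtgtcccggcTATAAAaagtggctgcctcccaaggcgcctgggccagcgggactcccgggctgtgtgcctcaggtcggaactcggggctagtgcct
Hnf4a upstream start, chr2:163506607-163506906, plus strand: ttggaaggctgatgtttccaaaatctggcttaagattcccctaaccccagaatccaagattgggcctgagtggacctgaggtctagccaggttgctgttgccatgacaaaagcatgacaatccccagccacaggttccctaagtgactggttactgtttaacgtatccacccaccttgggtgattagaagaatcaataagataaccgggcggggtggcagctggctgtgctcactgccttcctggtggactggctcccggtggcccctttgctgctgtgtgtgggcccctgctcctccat
Hnf4a downstream start, chr2:163546905-163547204, plus strand: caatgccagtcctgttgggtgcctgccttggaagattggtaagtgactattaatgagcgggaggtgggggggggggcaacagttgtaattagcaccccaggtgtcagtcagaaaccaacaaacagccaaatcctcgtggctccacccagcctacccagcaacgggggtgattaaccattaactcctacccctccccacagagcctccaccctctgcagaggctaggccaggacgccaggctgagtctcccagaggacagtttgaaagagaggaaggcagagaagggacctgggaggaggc
Hnf4aos, chr2:163541672-163541971, minus strand: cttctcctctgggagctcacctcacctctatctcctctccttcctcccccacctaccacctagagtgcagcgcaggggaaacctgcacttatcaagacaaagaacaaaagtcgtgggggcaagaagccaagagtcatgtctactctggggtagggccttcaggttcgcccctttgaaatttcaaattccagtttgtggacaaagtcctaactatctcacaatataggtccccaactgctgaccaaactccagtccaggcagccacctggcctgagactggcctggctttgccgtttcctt

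The 12 windows of the 8 genes were searched on both strands for short motifs, chosen after the values of the genes were known. The TATA box letters TATAAA stood on the strand of the gene in 3 of the 12 windows. These were the windows of *Cebpa*, *Foxa3* and *Cebpb*, at positions -30, -36 and 22 from the start. The *Cebpb* match thus lies after the annotated start, not before it. TATAAA stood on the strand of the gene in 8.32% of all 32851 windows, and on either strand in 5 of the 12 and in 13.6% of all windows. The same 3 genes had the smallest adjusted p-values of the 9. Over all tested genes with a window, 21.5% of the 641 with TATAAA on their own strand were lower in g*Spns1*-cKO mice, and 22.3% of the 10364 without it. The shares that were higher were 25.1% and 21.9%. The letters TGTTTAC, which FOXA factors bind, were found among these windows in that of *Foxa1* only, on the opposite strand at -141, and in 3.65% of all windows. The letters ATTGAT, which ONECUT factors bind, were found in the upstream *Hnf4a* window and in 1 *Foxa2* window, and in 7.54% of all windows. The HNF4 letters CAAAGTCCA were in none of the 12 windows and in 0.475% of all windows. Neither did any of the 12 hold the C/EBP letters TTGCNNAA, which were in 10.8% of all windows. The general promoter element CCAAT was in 6 of the 12 and in 37.4% of all windows. The GC box, written GGGCGG, was in 10 of the 12 and in 35.7% of all windows. A match of letters is not a bound site.

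The libraries held between 30350002 and 35295611 counts, and values are given as CPM, in which TMM factors bring the libraries to 1 common size, which sets the typical gene to no change. The TMM factors were 0.834 to 0.873 in controls and 1.16 to 1.18 in g*Spns1*-cKO mice. Because they differed this much, the median log2 fold change of all tested genes was 0.014 with TMM, 0.14 with upper-quartile scaling and 0.46 with library size only, and directions below are relative to the TMM setting. *Spns1* itself was lower, with 35.9, 50.7 and 34.6 CPM in controls and 17.8, 30.6 and 17.8 CPM in g*Spns1*-cKO mice (log2 fold change -0.87, edgeR's quasi-likelihood test, Benjamini-Hochberg adjusted p = 0.0300). The *Spns1* call was lost with library size only (-0.43, adjusted p = 0.213), with upper-quartile scaling (adjusted p = 0.0635), and without control replicate 2 or g*Spns1*-cKO replicate 1 or 3 (adjusted p = 0.0785, 0.0910 and 0.0830). The counts are per gene and include the exons that were not deleted. The hepatocyte markers were abundant in every library, as the liver label has it, and their 6 genes summed to 105369 to 114783 CPM in controls and 62822 to 73440 CPM in g*Spns1*-cKO mice. In bulk tissue, fewer hepatocytes and less RNA per hepatocyte cannot be told apart, for these markers as for the factors.

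Of the 9 factor genes, 4 fell and 1 rose in g*Spns1*-cKO mice, and 4 did not pass an adjusted p of 0.05. *Cebpa*, *Cebpb*, *Foxa3* and *Onecut1* fell, between 2.38-fold and 2.72-fold, and *Foxa2* rose 1.41-fold. *Hnf4a*, *Foxa1*, *Onecut2* and *Prox1* did not pass. Across all 15449 genes tested, 41.8% passed in either direction, 20.5% as lower and 21.3% as higher, so that 4 lower genes of 9 and 1 higher gene of 9 stand beside backgrounds of about 1 in 5 each. The median log2 fold change of the 9 genes was -0.42. The ranges of the groups were apart in 5 of the 9 genes, the same 5 that passed, against 54.1% of all genes tested. The smallest p that an exact permutation test of 3 mice against 3 can give is 0.1, and the adjusted p-values rest on the edgeR model.

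**Figure D1:**
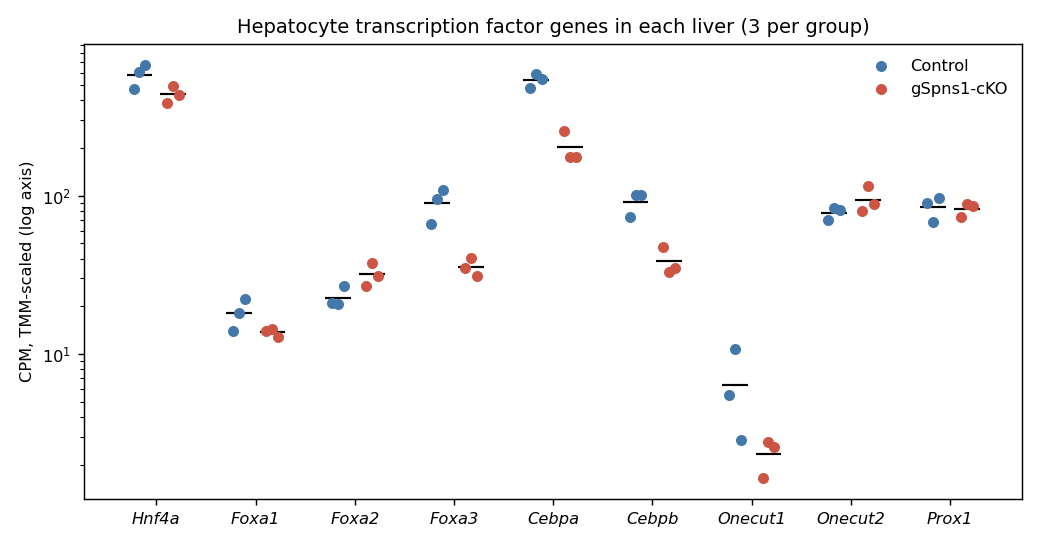
CPM after TMM scaling of the 9 genes on a log axis, with 1 point per liver, 3 control and 3 g*Spns1*-cKO, and a line at each group mean. The g*Spns1*-cKO points lie below all control points for *Foxa3*, *Cebpa*, *Cebpb* and *Onecut1*, above them for *Foxa2*, and the ranges of the groups overlap for the other 4 genes.

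*Cebpa*, which encodes the main C/EBP factor of the resting mature hepatocyte, lies on the plus strand of chromosome 7 (GRCm38, 35119293 to 35121928). It had 13468, 18028 and 13884 counts in controls and 9272, 6695 and 6935 counts in g*Spns1*-cKO mice, or 479, 585 and 549 CPM against 258, 174 and 176 CPM. The groups were far apart, and g*Spns1*-cKO replicate 1 was the highest of its group. The means were 538 ± 54.0 CPM and 203 ± 47.5 CPM (SD, n = 3 mice each), with a log2 fold change of -1.41 (SE 0.18, edgeR adjusted p = 0.000213). *Cebpa* passed as lower under all 13 alternative settings, with log2 fold changes between -1.62 and -0.96. It shares 51 of its 2636 exon bases with *Gm45091*, an antisense gene with at most 44 counts in a library.

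*Cebpb*, whose protein takes part in acute phase, inflammatory and regenerative responses and is made in macrophages as well as hepatocytes, lies on the plus strand of chromosome 2 from 167688915 to 167690418. Its 2051, 3118 and 2543 counts in controls and 1706, 1268 and 1367 counts in g*Spns1*-cKO mice gave 72.9, 101 and 100.5 CPM against 47.4, 33.0 and 34.8 CPM. As for *Cebpa*, every g*Spns1*-cKO liver was below every control liver and replicate 1 was the highest of the 3. The means were 91.6 ± 16.1 CPM and 38.4 ± 7.85 CPM, a log2 fold change of -1.25 (SE 0.17, edgeR adjusted p = 0.000486), and all 13 alternatives kept it past the threshold as lower. *Cebpb* shares 312 of its 1504 exon bases with *Tmem189*, a protein-coding gene on the opposite strand, and how reads on shared bases were counted is not given in the sources used here. *Tmem189* was also lower, at 21.0 ± 1.34 CPM and 10.6 ± 0.419 CPM, a log2 fold change of -0.98 (edgeR adjusted p = 0.000149), and its part in the *Cebpb* difference was not tested. The macrophage markers, whose part in the *Cebpb* level was not tested, moved the other way. All 10 genes of that list were higher, beside 21.3% of all genes tested. Among them *Gpnmb*, with 9, 36 and 7 counts in controls and 2309, 2682 and 3029 in g*Spns1*-cKO mice, passed the filter through the latter. The list summed to 141 to 214 CPM in controls and 634 to 888 CPM in g*Spns1*-cKO mice.

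Within a liver, the ratio of *Cebpb* to *Cebpa* does not depend on how libraries are scaled. Per kilobase of gene length, its log2 value was -1.91, -1.72 and -1.64 in controls and -1.63, -1.59 and -1.53 in g*Spns1*-cKO mice. All 3 g*Spns1*-cKO values were above the control values, by 0.17 on average (two-sided exact permutation test, p = 0.1, which is the minimum), though the nearest values of the groups were almost equal. Protein isoforms of C/EBPα and C/EBPβ that arise from alternative start codons cannot be seen in gene counts.

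Of the 3 FoxA genes, 1 fell, 1 rose and 1 did not pass. *Foxa3*, the most abundant of them in adult liver, lies on the minus strand of chromosome 7 from 19013284 to 19023538 and had 65.9, 95.7 and 108 CPM in controls and 35.0, 40.5 and 31.0 CPM in g*Spns1*-cKO mice. The groups did not overlap, with means of 90.0 ± 21.8 CPM and 35.5 ± 4.75 CPM and a log2 fold change of -1.34 (SE 0.18, edgeR adjusted p = 0.000543). *Foxa3* passed as lower under all 13 alternatives.

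*Foxa2*, on the minus strand of chromosome 2 from 148042877 to 148046969, was the one factor gene that rose. It had 588, 633 and 676 counts in controls and 974, 1449 and 1223 counts in g*Spns1*-cKO mice, or 20.9, 20.6 and 26.7 CPM against 27.1, 37.8 and 31.1 CPM. The lowest g*Spns1*-cKO liver was barely above the highest control liver. The log2 fold change was 0.49 (SE 0.15, edgeR adjusted p = 0.0236), and the call was lost when control replicate 1 or 2 or g*Spns1*-cKO replicate 2 or 3 was left out, with adjusted p-values up to 0.0931. FOXA2 is also made in bile duct cells, and all 10 genes of the cholangiocyte list were higher, beside 21.3% of all genes tested. Among them *Cftr* had 5, 1 and 2 counts in controls and 17, 26 and 26 in g*Spns1*-cKO mice. *Muc1* had 15, 14 and 9 against 82, 82 and 56. Both passed the filter through the g*Spns1*-cKO counts, so their direction adds nothing to the count. The list summed to 51.6 to 69.0 CPM in controls and 196 to 318 CPM in g*Spns1*-cKO mice. Most of each sum was 1 gene, *Spp1*, with 37.6, 40.0 and 56.2 CPM in controls and 191, 248 and 147 CPM in g*Spns1*-cKO mice. The sum is thus mainly the level of that gene. The part of bile duct cells in the *Foxa2* difference was not tested.

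*Foxa1*, on the minus strand of chromosome 12 from 57540628 to 57546916, was the least abundant FoxA gene. Its values of 13.9, 18.02 and 22.3 CPM in controls and 14.0, 14.3 and 12.7 CPM in g*Spns1*-cKO mice overlapped. The log2 fold change of -0.40 (SE 0.17, edgeR adjusted p = 0.0740) did not pass. It passed without control replicate 1 (adjusted p = 0.0126) and with the filter lowered to 1 count in any library (adjusted p = 0.0228), and with library size only it was 0.047.

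As shares of the summed FoxA counts per kilobase, *Foxa3* made up 71.3%, 76.9% and 74.7% in controls and 52.4%, 49.6% and 47.3% in g*Spns1*-cKO mice. *Foxa2* made up 19.5%, 14.2% and 15.8% in controls and 34.8%, 39.7% and 40.8% in g*Spns1*-cKO mice. The family composition thus differed by more than the spread within either group, from 74.3 ± 2.82% to 49.7 ± 2.53% for *Foxa3* and from 16.5 ± 2.69% to 38.4 ± 3.19% for *Foxa2*. The *Foxa1* share was 9.16 ± 0.277% and 11.8 ± 1.07%, although *Foxa1* itself was not higher (log2 fold change -0.40). The 3 shares are parts of 1 sum in each liver, so they are not separate results. A lower *Foxa3* raises the other shares without any change in those genes. None of the 3 shares overlapped between groups (two-sided exact permutation test, p = 0.1 for each, which is the minimum, and 0.1 after Benjamini-Hochberg adjustment over the 5 ratios and shares compared within livers). By CPM, the groups did not overlap in 54.1% of all genes tested. In the comparisons that leave out a mouse, the *Foxa2* share differed by between 20.8 and 23.8 percentage points.

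**Figure D2:**
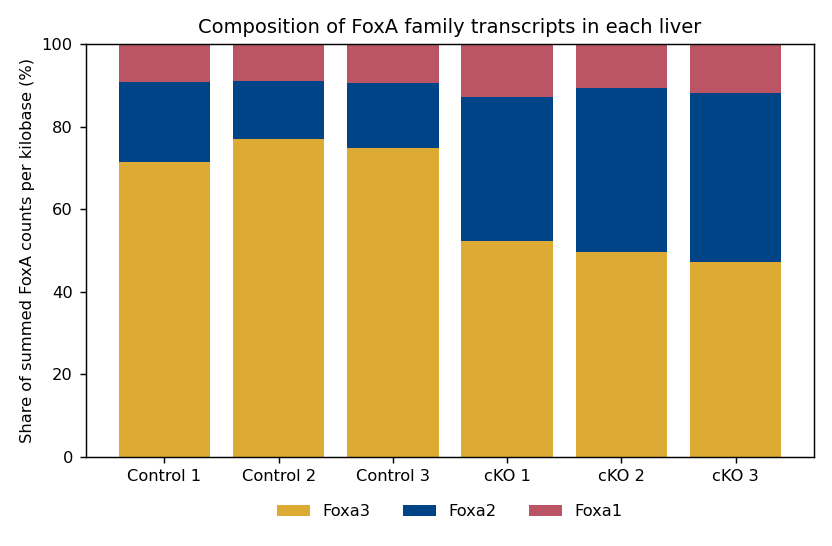
Stacked bars of the share of *Foxa3*, *Foxa2* and *Foxa1* in the summed FoxA counts per kilobase, in percent, for each of the 6 livers. *Foxa3* takes 71.3% to 76.9% of each control bar and 47.3% to 52.4% of each g*Spns1*-cKO bar, and most of the difference is taken up by *Foxa2*.

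*Onecut1*, on the plus strand of chromosome 9 from 74861921 to 74891781, was the least abundant of the 9 genes. It had 155, 330 and 72 counts in controls and 59, 107 and 102 counts in g*Spns1*-cKO mice, or 5.51, 10.7 and 2.85 CPM against 1.64, 2.79 and 2.59 CPM. The control livers differed from each other by more than the lowest of them differed from the g*Spns1*-cKO livers. The log2 fold change was -1.44 (SE 0.47, edgeR adjusted p = 0.0434), but only 1 of the 6 fits that left out a mouse kept the call, the one without control replicate 3, and without control replicate 2 the log2 fold change was -0.84 (adjusted p = 0.0916). It was also lost with upper-quartile scaling (adjusted p = 0.0635) and with library size only (adjusted p = 0.113). *Onecut1* shares 2171 of its 4113 exon bases with *Gm20649*, a gene on the same strand that had 0 counts in every library, and how reads on the shared bases were counted is not given in the sources used here.

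*Onecut2*, its paralog on the plus strand of chromosome 18 from 64340364 to 64398488, is counted over 13391 bases. It had 70.1, 83.1 and 81.2 CPM in controls and 80.1, 115 and 88.2 CPM in g*Spns1*-cKO mice, which overlapped (log2 fold change 0.27, SE 0.14, edgeR adjusted p = 0.153). With upper-quartile scaling and with library size only it passed as higher, at 0.41 and 0.72 (adjusted p = 0.0474 and 0.00224). The log2 ratio of *Onecut2* to *Onecut1* per kilobase was 1.97, 1.25 and 3.13 in controls and 3.91, 3.66 and 3.38 in g*Spns1*-cKO mice. The g*Spns1*-cKO livers were all higher, by 1.53 on average, and control replicate 3 was close to them (two-sided exact permutation test, p = 0.1, which is the minimum).

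*Prox1*, on the minus strand of chromosome 1 from 190118035 to 190170714, gave overlapping values of 90.0, 68.7 and 96.7 CPM in controls and 73.4, 89.0 and 85.7 CPM in g*Spns1*-cKO mice. The log2 fold change was -0.04 (SE 0.14, edgeR adjusted p = 0.835), and 0.41 with library size only (adjusted p = 0.0279), about as much as the median gene moves with that scaling. *Prox1* shares 133 of its 8390 exon bases with *Prox1os*, which had 10.9 ± 1.42 CPM and 8.02 ± 3.79 CPM and did not pass (log2 fold change -0.44, edgeR adjusted p = 0.318), though it did without g*Spns1*-cKO replicate 2 (-0.85, adjusted p = 0.0188) and with the lower filter (adjusted p = 0.0437). Of the endothelial list, which holds lymphatic markers, 6 of 8 tested genes were higher, beside 21.3% of all genes tested. The lymphatic markers *Pdpn* (log2 fold change -0.24, edgeR adjusted p = 0.7002), *Ccl21a* and *Mmrn1* were not among them, and the last pair had at most 9 counts in any library. *Flt4* and *Lyve1*, which lymphatic and sinusoidal endothelium share, were higher at 0.75 and 1.74, and their part in the *Prox1* level was not tested.

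*Hnf4a*, on the plus strand of chromosome 2 from 163506808 to 163572910, was the most abundant of the 9 genes in total counts in 5 of the 6 livers. It had 13317, 18538 and 17038 counts in controls and 13878, 18923 and 16985 counts in g*Spns1*-cKO mice, nearly the same numbers. After TMM scaling these were 474, 602 and 673 CPM against 386, 493 and 432 CPM, which overlapped. The log2 fold change was -0.42 (SE 0.17, edgeR adjusted p = 0.0666), with 583 ± 101 CPM and 437 ± 53.9 CPM. *Hnf4a* did not pass, but it was near the threshold, and DESeq2 placed it past (log2 fold change -0.42, adjusted p = 0.0299). In edgeR it also passed with the filter lowered to 1 count in any library (adjusted p = 0.0232) and without control replicate 1 or g*Spns1*-cKO replicate 2 (adjusted p = 0.0246 and 0.0470). With library size only the log2 fold change was 0.03 (adjusted p = 0.879). The sign of the *Hnf4a* difference therefore depends on the scaling, whereas *Cebpa*, *Cebpb* and *Foxa3* were lower under each of the 3 scalings.

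**Figure D3:**
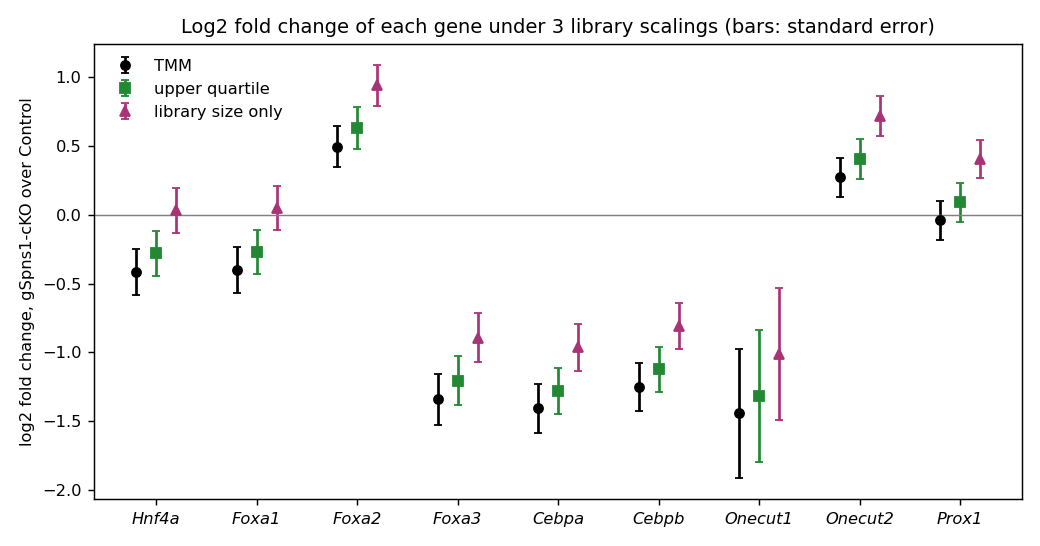
Log2 fold change of each gene, g*Spns1*-cKO over control, from edgeR with TMM, upper-quartile and library size only scaling, with bars of 1 standard error. The whole set shifts upward by a similar amount from TMM to library size only, and *Cebpa*, *Cebpb*, *Foxa3* and *Onecut1* stay below 0 while *Foxa2* and *Onecut2* stay above it.

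To compare the factors without any scaling between libraries, each was set against *Hnf4a* in the same liver, a denominator chosen after the values were seen. Per kilobase, *Cebpa* was 1.85, 1.78 and 1.49 times as abundant as *Hnf4a* in controls and 1.22, 0.648 and 0.748 times in g*Spns1*-cKO mice. In control livers *Cebpa* was thus the higher of the pair in each mouse, and in g*Spns1*-cKO mice in 1 of 3. On the log2 scale the ratio to *Hnf4a* differed by -1.02 for *Cebpa* (-1.29 to -0.83 with mice left out), by -0.91 for *Foxa3* and by -0.85 for *Cebpb*. The ratio to *Hnf4a* was higher by 0.90 for *Foxa2* and by 0.67 for *Onecut2*. For these 5 genes no g*Spns1*-cKO value overlapped a control value (two-sided exact permutation test, p = 0.1 for each, which is the minimum, and 0.15 after Benjamini-Hochberg adjustment over the 9 ratios to *Hnf4a*). Groups without overlap are common in these data, at 54.1% of all genes tested by CPM. By CPM, *Onecut2* overlapped between groups and did not pass (log2 fold change 0.27). All 9 ratios share *Hnf4a* as denominator, which itself stood at -0.42 with TMM, so they are not separate results. The share over all genes was not computed for ratios to *Hnf4a*. For *Foxa1* the difference was 0.03 (exact permutation test, p = 0.9), for *Prox1* 0.38 (p = 0.2) and for *Onecut1* -0.87 (p = 0.4, exact permutation tests), all with overlap.

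**Figure D4:**
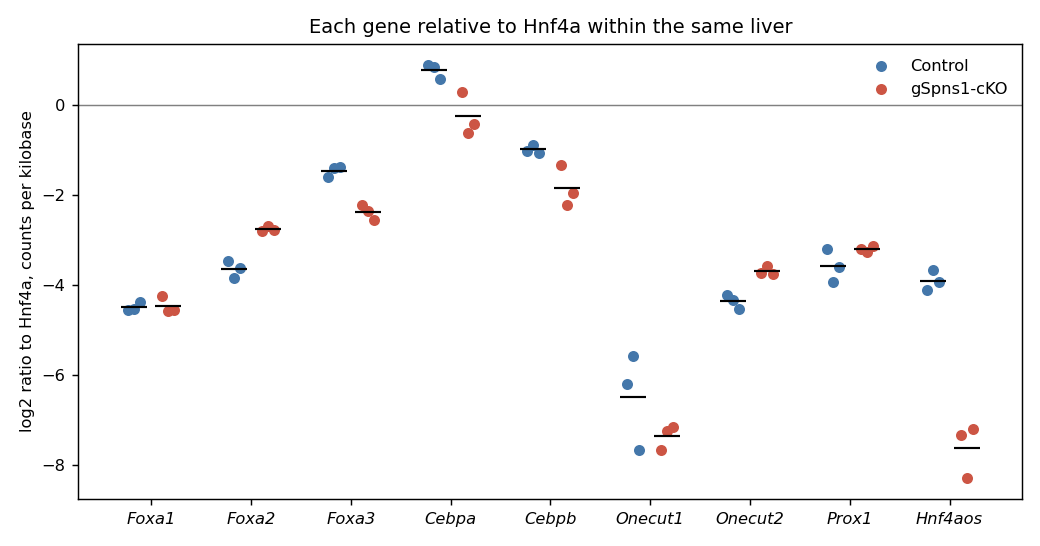
Log2 ratio of each gene to *Hnf4a* within the same liver, from counts per kilobase, with 1 point per liver and a line at each group mean. The groups separate downward for *Foxa3*, *Cebpa*, *Cebpb* and *Hnf4aos*, upward for *Foxa2* and *Onecut2*, and overlap for *Foxa1*, *Onecut1* and *Prox1*.

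The order of the 9 genes by CPM per kilobase, a level that can be compared between genes, was *Cebpa*, *Hnf4a*, *Cebpb*, *Foxa3*, *Prox1*, *Foxa2*, *Onecut2*, *Foxa1* and *Onecut1* in controls, from 204 ± 20.5 down to 1.55 ± 0.973. In g*Spns1*-cKO livers *Hnf4a* came first at 90.5 ± 11.2 and *Cebpa* next at 77.0 ± 18.02, with overlapping ranges. *Foxa2* also stood above *Prox1* there, at 13.5 ± 2.28 against 9.86 ± 0.978, whereas in controls their ranges overlapped. The other neighbours whose ranges overlapped were *Cebpb* and *Foxa3*, and *Onecut2* and *Foxa1*, in controls, and *Foxa3* and *Foxa2* in g*Spns1*-cKO mice. The remaining neighbours were apart in every liver of the group. The levels of *Onecut1*, *Cebpb*, *Prox1* and *Cebpa* are given over their full lengths, exon bases shared with other genes included. For *Cebpb* these are 312 of 1504 bases, so its place next to *Foxa3* carries that limit too.

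The largest difference at these loci was in *Hnf4aos*, a noncoding gene on the strand opposite to *Hnf4a*. It lies at chromosome 2, 163493807 to 163541720, and its start is 34864 bases downstream of the upstream *Hnf4a* start and 5434 bases before the downstream one, so its body covers the upstream start. It had 153, 290 and 220 counts in controls and 17, 12 and 23 counts in g*Spns1*-cKO mice. All 3 g*Spns1*-cKO libraries were far below the control libraries, at 0.457 ± 0.137 CPM against 7.85 ± 2.12 CPM, a log2 fold change of -4.09 (SE 0.31, edgeR adjusted p = 1.37e-05), or 17.04-fold lower. It passed as lower under all 13 alternatives. Relative to *Hnf4a* in the same liver it was 13.02-fold lower. The exons of *Hnf4aos* and *Hnf4a* share 0 bases, but they lie within each other's span, and since it is not given whether counting used strand, intronic reads of *Hnf4a* cannot be told apart from *Hnf4aos* reads. Gene counts also do not separate *Hnf4a* transcripts of the upstream start from those of the downstream start.

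Other genes followed *Hnf4a* closely. Among the 8002 genes compared, those tested whose mean reached 10 CPM, *Tesk2*, *Ctsh* and *Jmjd6* had the highest Pearson correlation with *Hnf4a* in log2 CPM over the 6 livers, 0.985, 0.985 and 0.984. The points share libraries and scaling, and 54 genes had a correlation above 0.95, so these values only describe which genes had the most similar profile. *Tesk2* fell (log2 fold change -0.45, edgeR adjusted p = 0.0316), a call lost with both other scalings (-0.0022 with library size only) and without control replicate 2 or 3 or g*Spns1*-cKO replicate 1 or 3 (adjusted p up to 0.106). *Ctsh* and *Jmjd6* did not pass, at -0.37 and -0.28 (edgeR adjusted p = 0.0609 and 0.0848). *Ctsh* passed without control replicate 1 or g*Spns1*-cKO replicate 2 (adjusted p = 0.0334 and 0.0460), with DESeq2 (0.0328) and with the lower filter (0.0369).

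Of the paralogs, *Cebpe*, better known as a factor of granulocytes, was lower, at 14.3 ± 1.59 CPM and 8.37 ± 2.62 CPM (log2 fold change -0.77, SE 0.21, edgeR adjusted p = 0.0133). The *Cebpe* call was lost with library size only (-0.33, adjusted p = 0.190) and without g*Spns1*-cKO replicate 3 (adjusted p = 0.0537). *Cebpd*, *Cebpg* and *Prox2* did not pass, with log2 fold changes of 0.02, -0.01 and -0.19 (edgeR adjusted p = 0.935, 0.938 and 0.637). Their standard errors were 0.19, 0.10 and 0.30. *Hnf4g* was near the limit of detection with 0, 2 and 0 counts in controls and 4, 14 and 6 counts in g*Spns1*-cKO mice, and was not tested. *Onecut3* had 0 counts in each library, which allows up to 0.0763 to 0.119 CPM depending on the library, the level of 3 counts, and covers counting error only.

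Further liver transcription factors were read from a list of 20 genes, all of which were tested. Of these, 10 fell and 2 rose, beside 20.5% lower and 21.3% higher among all genes tested. Their median log2 fold change was -0.24. The strongest decreases were in *Tbx3* (log2 fold change -1.53, edgeR adjusted p = 0.000244), a T-box factor of pericentral hepatocytes, and *Creb3l3* (-1.35, edgeR adjusted p = 8.79e-05), a membrane-bound factor of hepatic lipid metabolism. *Hhex*, a homeobox factor of early liver development, and *Rxra*, the partner of many nuclear receptors, followed at -1.02 and -0.87. *Nr0b2*, which encodes the repressor SHP that acts on HNF4A and other nuclear receptors, rose from 16.8 ± 4.44 CPM to 38.6 ± 8.31 CPM (log2 fold change 1.204, SE 0.22, edgeR adjusted p = 0.00338). *Gata4* rose by less, at 0.38 (edgeR adjusted p = 0.0234), and the call was lost without control replicate 2 or 3 or g*Spns1*-cKO replicate 1 or 3, with adjusted p-values of 0.0538 to 0.0775. With library size only, 3 of the 20 were lower and 4 higher, and among all genes 6.28% were lower and 47.2% higher under that scaling. The *Hhex* call was lost there (adjusted p = 0.0627).

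Genes that the 9 factors are known to regulate in hepatocytes were read from a list of 36, of which 35 were found and tested, the symbol *Tf* having no match. Of the 35, 19 fell and 2 rose, 54.3% and 5.71% beside 20.5% and 21.3% of all genes tested. Their median log2 fold change was -0.55. The strongest decreases were in *Cyp8b1*, an enzyme of bile acid synthesis, from 409 ± 58.8 CPM to 124 ± 37.1 CPM (log2 fold change -1.72, edgeR adjusted p = 0.000257), and in *Pck1*, the gluconeogenic enzyme, from 3615 ± 605 CPM to 1167 ± 525 CPM (-1.63, edgeR adjusted p = 0.00520). *Cyp27a1* and *Apoa2* followed at -1.01 and -1.002. *Igfbp1*, a secreted IGF-binding protein whose promoter binds FOXA factors, rose from 56.7 ± 17.7 CPM to 670 ± 120 CPM (log2 fold change 3.56, SE 0.26, edgeR adjusted p = 2.71e-05). *Ppargc1a*, a coactivator of HNF4A, rose at 1.30 (edgeR adjusted p = 0.00822). With library size only 5 of the 35 were lower and 4 higher, beside 6.28% and 47.2% of all genes. Relative to the median of all genes the list stood at -0.56 under that scaling and at -0.56 with upper-quartile scaling. A scaling shifts all genes by nearly the same amount, so this relative value is almost fixed by construction and does not test the choice of scaling.

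The hepatocyte marker genes shared with this list fell in 4 of 6 cases, beside 20.5% of all genes tested. These were *Fgb* (log2 fold change -0.98), *Apoa1* (-0.76), *Alb* (-0.73) and *Apob* (-0.46), all with edgeR adjusted p-values of at most 0.0494. With library size only none of these 4 calls held, and the *Apob* call, at -0.01 under that scaling (adjusted p = 0.960), was also lost with upper-quartile scaling (0.141), with at least 10 counts in every library (0.0703), with a replicate block (0.0812) and in 5 of the 6 fits that left out a mouse, all but the one without control replicate 1, with adjusted p-values of 0.0522 to 0.171. *Ttr* (-0.47, adjusted p = 0.0545) and *Ahsg* (-0.01, adjusted p = 0.977) did not pass. Markers of other liver cells rose in the same livers. Among all genes tested 21.3% were higher, and 47.2% with library size only. In the stellate list 7 of 10 genes were higher, and *Col1a1*, *Acta2* and *Hand2* did not pass at 1.43, 1.14 and 0.54. The list had sums of 215 to 246 CPM in controls and 553 to 618 CPM in g*Spns1*-cKO mice. In the endothelial list *Clec4g* did not pass either, at -0.10. The list summed to between 155 and 173 CPM and between 227 and 287 CPM, with 1 marker, *Ccl21a*, at no more than 3 counts in each library. The neutrophil list stayed low, between 3.81 and 6.01 CPM and between 10.01 and 15.8 CPM, with *Ly6g* at no more than 3 counts in each library. Of its 10 genes, 4 were tested and all 4 were higher. The other 6 had too few reads to be tested, and their groups overlapped. A gene can pass the filter through the counts of 1 group alone, so the 4 do not speak for the list. What part these cells have in the levels of the factors was not tested.

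**Figure D5:**
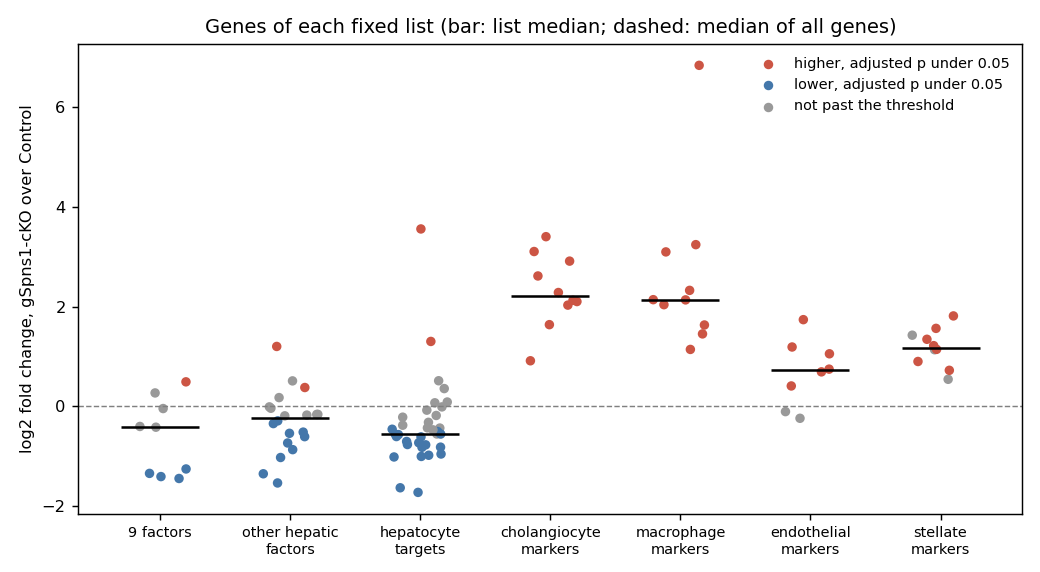
Log2 fold change, g*Spns1*-cKO over control, of each tested gene of 7 lists, coloured by whether it passed an adjusted p of 0.05, with a bar at the list median and a dashed line at the median of all genes. The factor, other hepatic factor and hepatocyte target lists have medians of -0.42, -0.24 and -0.55. The cholangiocyte and macrophage lists have medians of 2.21 and 2.14 with every gene higher. Some genes of these marker lists passed the filter through the g*Spns1*-cKO counts alone.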

How the data were processed

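RNA-Seq of 6 mouse livers was analysed, with groups and replicate numbers taken from the sample titles. The authors deposited raw counts per gene for each library. Per the labels, fastp, HISAT2 2.0.5 and featureCounts 1.5.0-p3 were used on mm10, without their roles, and the annotation release and the strand setting are not given in the sources used here. The 6 FPKM columns and the columns of the authors' own comparison (group means, log2 fold changes, p-values) were not used. The deposited gene lengths were used for levels per kilobase. Exon bases shared between genes were taken from the GENCODE M21 annotation, which need not be the one used for counting. Its coordinates matched the deposited ones for every factor except *Onecut2*, which has 16234 exon bases there and 13391 in the deposited lengths.

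The count analysis used edgeR 4.0.16 under R 4.3.3: filterByExpr by genotype (15449 of 54532 genes kept), TMM scaling, and the robust quasi-likelihood test without covariates, with Benjamini-Hochberg adjustment over all genes tested and a threshold of 0.05. The standard error is the log2 fold change divided by the square root of F. Ratios within a liver were compared by two-sided exact permutation tests. Scripts were tested on simulated data. Within groups, chi-square per gene was between 41.1 and 122, so no 2 libraries agreed within sampling noise. Replicates are separate mice.

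The 9 genes and all lists were chosen with earlier results of these data known. Named genes are the 9 factors, *Spns1*, genes overlapping a factor, all paralogs and the 3 genes most correlated with *Hnf4a*. From each list, up to 4 of the most changed genes in each direction (without overlap between groups) are named. List genes that did not pass are named where at most 5 remained. For cell type markers that rose, counts and sums stand in place of names, except where a gene is named to state a limit. *Gm25881* and *Gm28172*, which overlap *Hnf4a* and *Prox1*, had at most 19 counts. Alternatives were DESeq2 1.42.0, scaling by library size only or by upper quartiles, a filter of 1 count in some library or of 10 counts in all, each mouse left out, a replicate block, a threshold of 0.01, and ratios without division by length. Figures were drawn with matplotlib 3.10.9.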

Additional observations from a re-analysis of the deposited data

How the results depend on the processing

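Over all genes, calls numbered 3286 higher and 3166 lower, but 7289 and 970 with library size only and 4111 and 2240 with upper-quartile scaling. The calls of *Cebpa*, *Cebpb*, *Foxa3* and *Hnf4aos* held under all 13 alternatives. Library size only gave 3 factors higher (*Foxa2*, *Onecut2* and *Prox1*) in place of 1, and among the other hepatic factors 4 higher and 3 lower in place of 2 and 10, and among the hepatocyte targets 4 higher and 5 lower in place of 2 and 19; it tests against a median gene shifted by 0.46. Upper-quartile scaling gave 2 factors higher. Lowering the filter to 1 count in any library gave 6 factors lower in place of 4, with *Hnf4a* and *Foxa1* added. A threshold of 0.01 gave 0 factors higher, 1 other hepatic factor higher and 8 targets lower. Leaving out single mice, factors higher ranged from 0 to 1, factors lower from 3 to 5, other hepatic factors higher from 1 to 2 and lower from 7 to 9, and targets lower from 10 (without control replicate 3) to 18, with 11 without g*Spns1*-cKO replicate 3.

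Library size only reversed the sign of *Hnf4a* (0.03), *Foxa1* (0.047), *Prox1* (0.41), *Cebpg* (0.43), *Prox2* (0.25), *Ahsg* (0.44), *Prox1os* (0.0070), *Ctsh* (0.077) and *Jmjd6* (0.17), none of which passed with TMM. Upper-quartile scaling reversed *Prox1* (0.091), *Cebpg* (0.12) and *Ahsg* (0.12), and requiring at least 10 counts in every library reversed *Prox1* (0.0018), *Cebpg* (0.031) and *Ahsg* (0.035). With mice left out, log2 fold changes ranged from -0.18 to 0.049 for *Prox1*, -0.17 to 0.14 for *Cebpd*, -0.057 to 0.039 for *Cebpg*, -0.40 to 0.075 for *Prox2* and -0.16 to 0.10 for *Ahsg*, and the *Foxa1* to *Hnf4a* log2 ratio from -0.073 to 0.090. The causes of these changes were not tested, beyond the shift of all genes that a scaling makes by construction.

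The replicate numbers showed no visible pairing of the mice. Same-numbered livers correlated at 0.042, 0.032 and -0.027 in their deviations from the group means, and the other pairs at -0.081 to 0.056. With 3 mice per group such a check cannot exclude a pairing. A replicate block gave 1 factor higher and 4 lower, 9 other hepatic factors lower and 17 targets lower. Genes under 3 counts, such as *Onecut3*, are below what this depth can show.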
